A study of Sus scrofa with 8 samples.

Results

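Cytosolic ribosomal protein genes were examined in liver from 2 young sows (180 days of age) and 2 old ones (8 years of age) of the Yana (or Yanan) breed, an indigenous Chinese pig, in 1 rRNA-depleted RNA-seq library per sow. All 4 sows were described as healthy and without kinship over recent generations, all were fasted overnight before slaughter, and neither a treatment nor a genetic modification was given for them. The authors report that the young sows had never given birth and that the old ones had done so over many years before being culled. Age and breeding history therefore cannot be told apart here. A gene was included when its Ensembl pig symbol began with RPL or RPS followed by a digit or was RPSA, RPLP0, RPLP1 or RPLP2, and the kinases whose symbol begins with RPS6K were left out. Of the 21607 mRNA identifiers of the deposited table, 11654 had a symbol and 28 met this rule, 1 identifier for each symbol. They comprised 23 core ribosomal proteins, 9 of the large and 14 of the small subunit, and 5 genes related to a core gene by sequence (RPL10L, RPL26L1, RPL36AL, RPL7L1 and RPS27L). A further 30 symbols of this family, RPLP0 among them, belonged to identifiers that were not matched to a row and were not analysed here. The 28 genes are therefore a part of the family.

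The cytosolic ribosome translates nuclear-encoded mRNAs. Its small subunit reads the mRNA and its large subunit joins the amino acids, and each core protein is normally present as a single copy per ribosome, apart from the acidic stalk proteins RPLP1 and RPLP2, which bind in pairs to RPLP0 and bring elongation factors to the ribosome. Most ribosomal protein mRNAs begin with a terminal oligopyrimidine (TOP) tract, through which mTOR signalling sets their translation, so their mRNA level and the rate of protein synthesis can differ. In the liver, ribosomes supply the plasma proteins that hepatocytes secrete. Ribosomal protein genes have many processed copies in mammalian genomes, and since it is not stated how reads matching several copies were counted, the value of each gene below is uncertain to that extent.

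The values were deposited per library and are CPM, reads scaled to a common total per library that is larger than the reads listed, with no correction for transcript length, so a gene is compared here between libraries and its level is not ranked against that of other genes. The listed mRNAs held 37555696 and 37125093 reads in the young livers but 22482241 and 24866406 in the old ones. They also took less of the scaled total in old livers, at 365330 and 346173 CPM against 408898 and 428910 CPM in young livers. The deposited values of mRNAs as a whole are thus lower in old livers. Of 10 hepatocyte markers 8 were measured, none of them at 0 in any library, and they summed to 49480 and 57040 CPM in the young livers and to 34076 in old replicate 1 and 41459 in old replicate 2. The 4 measured of 7 macrophage markers summed to 204 and 226 CPM at the young age and 290 and 284 CPM at the old age. Most of this was C1QA, at 181 and 204 CPM in young and 255 and 241 CPM in old livers. CSF1R overlapped between the ages, and the other 3 macrophage markers were higher in both old livers. The 3 measured of 5 cholangiocyte markers summed to at most 1.27 CPM in any library. These sums are given beside the ribosomal values below, and their part in them was not tested. In bulk tissue, fewer cells of a type and less RNA per cell cannot be told apart.

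To determine whether the mRNAs of the cytosolic ribosome differ between young and old livers, the 28 genes were first summed in each library. Their summed level was 7624 and 8012 CPM in the young livers, 5285 CPM in old replicate 1 and 7132 CPM in old replicate 2. Both old livers were lower than both young livers, and the old livers differed more from each other than old replicate 2 did from young replicate 1. The mean of the old livers was 0.794 times that of the young livers. As deposited, the hepatocyte marker sum had the same order of libraries, with old replicate 1 lowest and young replicate 2 highest. The hepatocyte sum is set mostly by its most abundant markers, and single markers did not all have this order. On average 6 of the 8 hepatocyte markers were lower and 2 higher in old livers. Other cell types had other orders. The 5 measured of 6 stellate cell and fibroblast markers summed to 17.3 and 35.2 CPM in young livers. Their sum was 12.3 CPM in old replicate 1 and 47.1 CPM in old replicate 2. No marker sum was taken as a share of mRNA reads.

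This order depended on the denominator. Of the reads on listed mRNAs, the 28 genes took 1.864% in young replicate 1 (95% Wilson interval 1.860 to 1.869), 1.868% in young replicate 2 (1.864 to 1.872), 1.447% in old replicate 1 (1.442 to 1.452) and 2.060% in old replicate 2 (2.055 to 2.066). The young livers thus lay between the old ones, with old replicate 1 lowest and old replicate 2 highest. As a share of mRNA reads, the age groups overlapped. The intervals cover counting error alone, as PCR reads are not independent molecules, and no test was made on the sum, since 2 against 2 libraries cannot give an exact two-sided permutation p below 0.333.

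**Figure D1:**
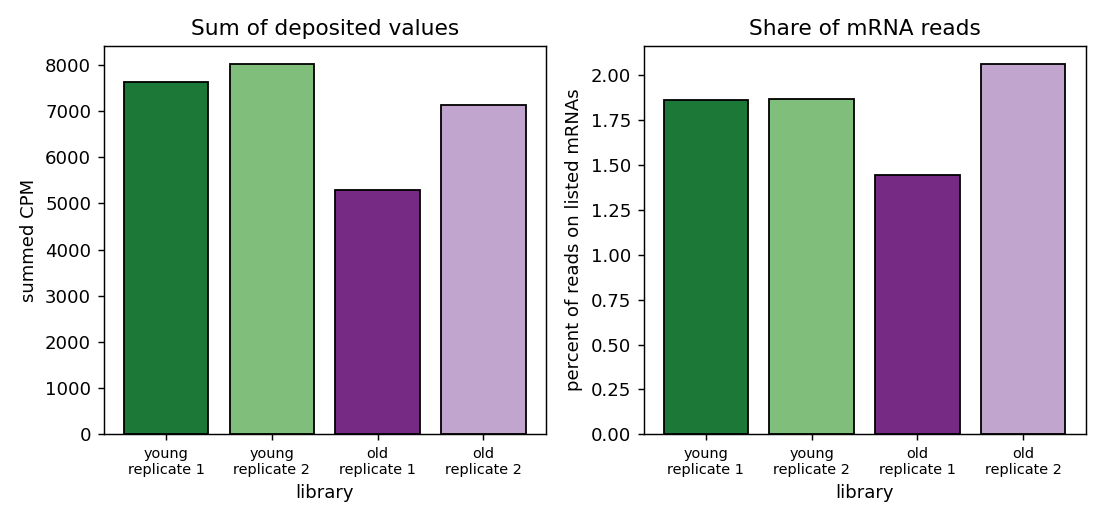
Sum of the 28 ribosomal protein genes in each library, as deposited CPM (left) and as percent of the reads on listed mRNAs (right), with 1 bar per liver and both axes starting at 0. On the left both old livers are lowest (5285 and 7132 against 7624 and 8012 CPM), and on the right old replicate 2 is highest at 2.060%.

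The fold change of each gene was taken from limma fitted on log2(CPM + 1) over the 16898 mRNAs above 0 in at least 2 libraries, a scale that understates the change of low values. All 28 genes passed this filter. None of them was called by the rule used here (adjusted p under 0.05, and a change of more than 1 on the log2 scale), where 0% of all mRNAs were called (none of 16898), and the smallest adjusted p-value of a ribosomal gene was 0.213. At an unadjusted p-value under 0.05, 6 genes were lower (RPL14, RPL4, RPS3A, RPS27L, RPS12 and RPL11) and 3 higher, RPLP2 and RPL38 among them, in old livers, against 8.93% and 6.78% of all mRNAs. Of the 22 ribosomal genes with a mean of at least 50 CPM, 5 were lower and 3 higher at this threshold, against 21.9% and 7.26% of the mRNAs at that level. The quasi-likelihood test of edgeR on the recovered reads also called none of the 28 genes and 0 of all 16898 mRNAs. In it 2 of the 28 genes had an unadjusted p-value under 0.05, beside 2474 of all mRNAs.

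The fold changes lay mostly below 0. In old livers 24 genes were lower and 4 higher on average, where 52.9% of all mRNAs were lower, and the median log2 fold change was -0.34 (quartiles -0.75 and -0.15) against -0.02 (-0.34 and 0.24) for all mRNAs. Abundant mRNAs as a whole had this shift. Among the 744 mRNAs with a mean of at least 50 CPM, 69.2% were lower in old livers and the median was -0.37 (quartiles -0.80 and 0.18), next to -0.35 for the 22 ribosomal genes above this level. With the mRNA total as the denominator the 28 genes divided into 19 lower and 9 higher, with a median of -0.12, beside -0.13 for the 744 abundant mRNAs. TMM scaling gave 19 lower and 9 higher as well, with a median of -0.15, beside -0.17 for the abundant mRNAs. RPL29, RPL36AL, RPLP1, RPS18 and RPS28 were the genes whose direction changed.

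**Figure D2:**
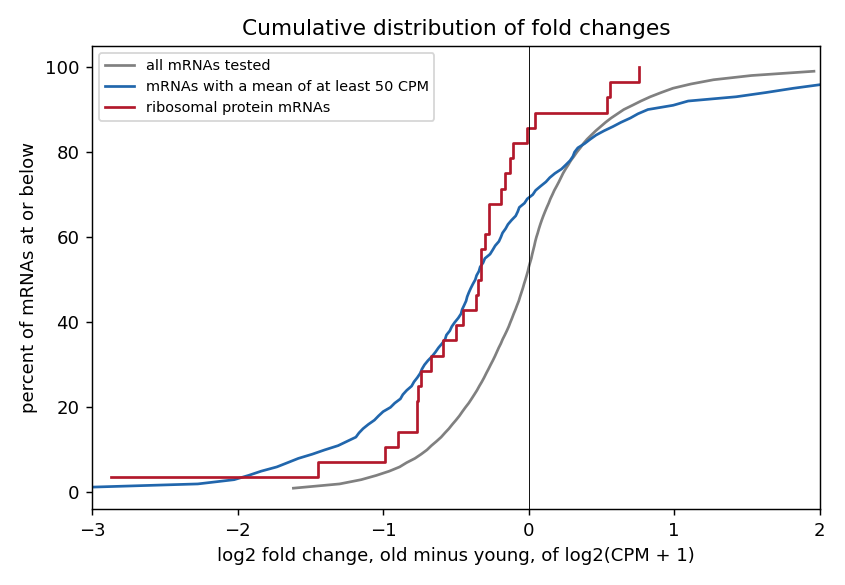
Cumulative percent of mRNAs at or below each log2 fold change (old minus young, on log2(CPM + 1)), for the 28 ribosomal protein genes (steps), the 744 mRNAs with a mean of at least 50 CPM and all 16898 mRNAs tested (lines). The ribosomal and the abundant mRNAs cross 50% near each other, at -0.34 and -0.37, and the ribosomal genes reach no further than 0.76 on the higher side.

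Both old livers were below both young livers for 15 of the 28 genes and above them for 3, while for 10 genes the ages overlapped. The background was 25.0% below and 24.4% above among all mRNAs, and 45.4% below and 13.6% above among those with a mean of at least 50 CPM, where 12 of the 22 ribosomal genes were below and 3 above. After scaling to the mRNA total, 8 of the 28 genes were below and 4 above, beside 17.7% and 30.0% of all mRNAs. Among mRNAs with a mean of at least 50 CPM, a level that 22 of the 28 genes reach, the shares were 30.6% and 20.8%. RPL14, RPL11, RPS3A, RPS27L, RPS3, RPL4, RPS12 and RPS21 stayed below, and RPL38 and RPLP2 above, under the deposited and all 3 other scalings.

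Much of the spread lay between the old livers. Old replicate 1 had the lowest value of the 4 libraries for 22 of the 28 genes, shared with old replicate 2 for RPS21, and it was below both young livers for these 22, against 35.4% of all mRNAs. Among those with a mean of at least 50 CPM it was so for 19 of 22 ribosomal genes, against 63.8% of the mRNAs. Old replicate 2 was below both young livers for 18 of the 28 genes, against 35.5% of all mRNAs. At a mean of at least 50 CPM it was so for 12 of 22 ribosomal genes, against 56.5% of the mRNAs. Of the 22 ribosomal genes with a mean of at least 50 CPM, each was lower in old replicate 1 than in old replicate 2, a direction that 65.9% of all mRNAs at this level had (24 of all 28 genes, and 49.8% of all mRNAs tested). The median difference of the 28 genes, replicate 2 minus replicate 1, was 0.40 on the log2 scale between the old livers and 0.08 between the young livers. For the mRNAs with a mean of at least 50 CPM it was 0.29 and 0.10, and for all mRNAs 0.00 and -0.02. Leaving out old replicate 1, the 28 genes had a median log2 fold change of -0.24, with 19 genes lower and 9 higher, and leaving out old replicate 2 it was -0.55. The mRNAs with a mean of at least 50 CPM had medians of -0.26 and -0.51 in these 2 fits.

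**Figure D3:**
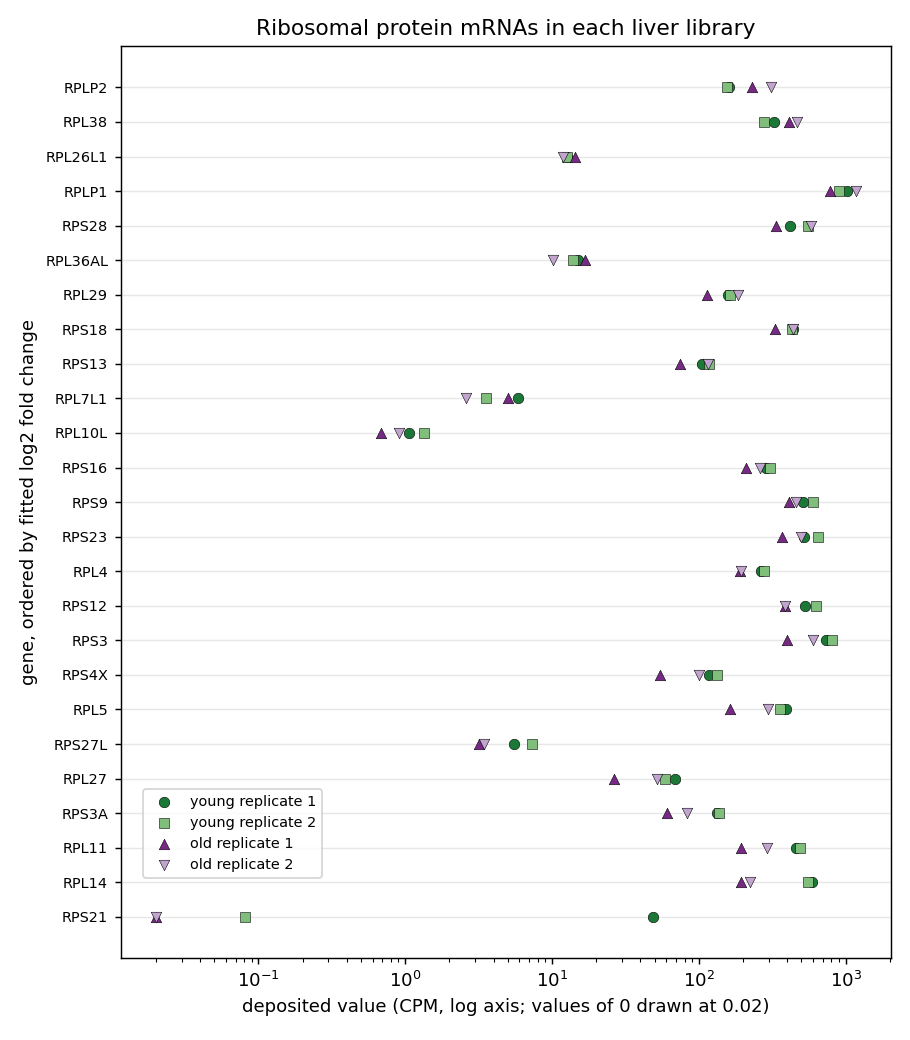
Deposited values of 25 of the 28 ribosomal protein genes (CPM, log axis) in each of the 4 liver libraries, with 1 point per library and genes ordered by fitted log2 fold change. Old replicate 1 (upward triangles) is the leftmost point in 19 rows besides that of RPS21, and RPS21 is the only gene drawn with values of 0, which are drawn at the left edge.

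Among large subunit proteins, RPL14 had the largest difference of the genes measured in all 4 libraries. RPL14 (ENSSSCG00000011272), a protein on the outer face of the large subunit, was at 586 and 556 CPM in the young and 193 and 224 CPM in the old group, or 571 ± 20.8 against 208 ± 21.4 (SD, n = 2). The old livers were close to each other and well below the young ones. Its log2 fold change was -1.45 (standard error 0.14, unadjusted p = 0.00124, adjusted p = 0.213, limma), with a range of -1.56 to -1.35 when 1 library was left out and of -1.28 to -1.22 over the other scalings. In the exact test of edgeR, RPL14 had an adjusted p-value of 0.415.

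RPL11 and RPL5 form a particle with 5S rRNA that joins the large subunit and, when free, binds the ubiquitin ligase MDM2. RPL11 (ENSSSCG00000024260) was at 462 and 488 CPM in young against 195 and 292 CPM in old livers, a log2 fold change of -0.99 ± 0.25 (SE, with an adjusted p of 0.264 in limma). Without old replicate 1 it was -0.70 and without old replicate 2 it was -1.28. RPL5 (ENSSSCG00000006899) was at 390 and 355 CPM in young livers, at 162 in old replicate 1 and at 296 in old replicate 2, with a log2 fold change of -0.76 ± 0.36 (SE, with an adjusted p of 0.434 in limma). Its old livers differed more from each other than old replicate 2 from young replicate 2, and the ages overlapped after scaling to the mRNA total. The ratio of RPL5 to RPL11 within a library was 0.845 and 0.728 in young livers but 0.830 and 1.01 in old livers, so the ages overlapped in it.

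RPL4 (ENSSSCG00000004945), which lines the tunnel through which the new peptide leaves, was at 264 and 279 CPM in the young and 191 and 193 CPM in the old group. Each age was tight for this gene, and the log2 fold change of -0.50 ± 0.11 (SE, with an adjusted p of 0.247 in limma) stayed between -0.54 and -0.46 with 1 library left out. The other scalings brought it nearer to no change, at -0.32 to -0.26. RPL27 had 69.1 and 59.1 CPM in the young livers but 26.4 and 52.2 in the old livers, so that old replicate 1 was apart. Its ages overlapped after scaling to the mRNA total. RPL29 was at 159 and 163 CPM in young against 113 and 184 CPM in old livers, on both sides of the young ones.

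RPL38 was on the opposite side. RPL38 (ENSSSCG00000017239), a small protein of the large subunit known for its role in the translation of Hox mRNAs, was at 324 and 280 CPM in the young and 413 and 467 CPM in the old group, a log2 fold change of 0.54 ± 0.15 (SE, with an adjusted p of 0.279 in limma). Both old livers were above both young livers. Leaving out 1 library gave 0.44 to 0.65, and the other scalings gave 0.72 to 0.78.

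The stalk proteins RPLP1 and RPLP2 did not have the same pattern. RPLP2 (ENSSSCG00000012842) was at 160 and 155 CPM in young against 231 and 309 CPM in old livers, the highest log2 fold change of the 28 genes at 0.76 ± 0.19 (SE, with an adjusted p of 0.264 in limma), with 0.55 without old replicate 2 and 0.97 without old replicate 1. RPLP1 (ENSSSCG00000004970) was at 1020 and 905 CPM in young livers, at 777 in old replicate 1 and at 1168 in old replicate 2. Its ages overlapped and its log2 fold change was -0.01 ± 0.26 (SE), a value that turned to between 0.17 and 0.22 with other scalings. Within a library, the ratio of RPLP2 to RPLP1 was 0.156 and 0.172 in young livers but 0.298 and 0.264 in old livers, a ratio of the means of 1.71. This ratio does not depend on the scaling of the libraries, and both old livers were above both young livers.

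Of the core small subunit proteins, 13 of 14 were lower on average in old livers as deposited, RPS21 among them. The share lower was 52.9% of all mRNAs and 69.2% of those with a mean of at least 50 CPM. RPS18 and RPS28 changed direction with TMM scaling and with the mRNA total. RPS3A (ENSSSCG00000009019), which sits near the exit of the mRNA channel, was at 132 and 137 CPM in the young and 61.2 and 83.7 CPM in the old group, a log2 fold change of -0.90 ± 0.21 (SE, with an adjusted p of 0.249 in limma). RPS3, at the entry of the channel, was at 733 and 813 CPM in young against 397 and 595 CPM in old livers. Its log2 fold change was -0.67 ± 0.26 (SE, with an adjusted p of 0.367 in limma). RPS12 (ENSSSCG00000004177) was at 533 and 629 CPM in the young and 385 and 386 CPM in the old group. For this gene the young livers carried the spread, and its log2 fold change was -0.59 ± 0.14 (SE, with an adjusted p of 0.255 in limma).

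RPS23, a protein of the decoding centre, was at 524 and 648 CPM in young against 366 and 498 CPM in old livers. RPS9, at the entry of the mRNA channel, was at 510 and 600 CPM in the young and 409 and 461 CPM in the old group. Both were below the young livers as deposited, with log2 fold changes of -0.45 ± 0.24 (SE) for RPS23 and -0.35 ± 0.16 (SE) for RPS9, and both overlapped between the ages under each of the 3 other scalings. RPS4X, encoded on the X chromosome, was at 118 and 132 CPM in young against 54.3 and 101 CPM in old livers, again with old replicate 1 apart. It too overlapped between the ages under each of the 3 other scalings. The genes RPS13, RPS18 and RPS28 overlapped between the ages as deposited, and RPS16 was lower in both old livers as deposited and overlapped under the other 3 scalings, with log2 fold changes for these 4 from -0.33 to -0.11.

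**Figure D4:**
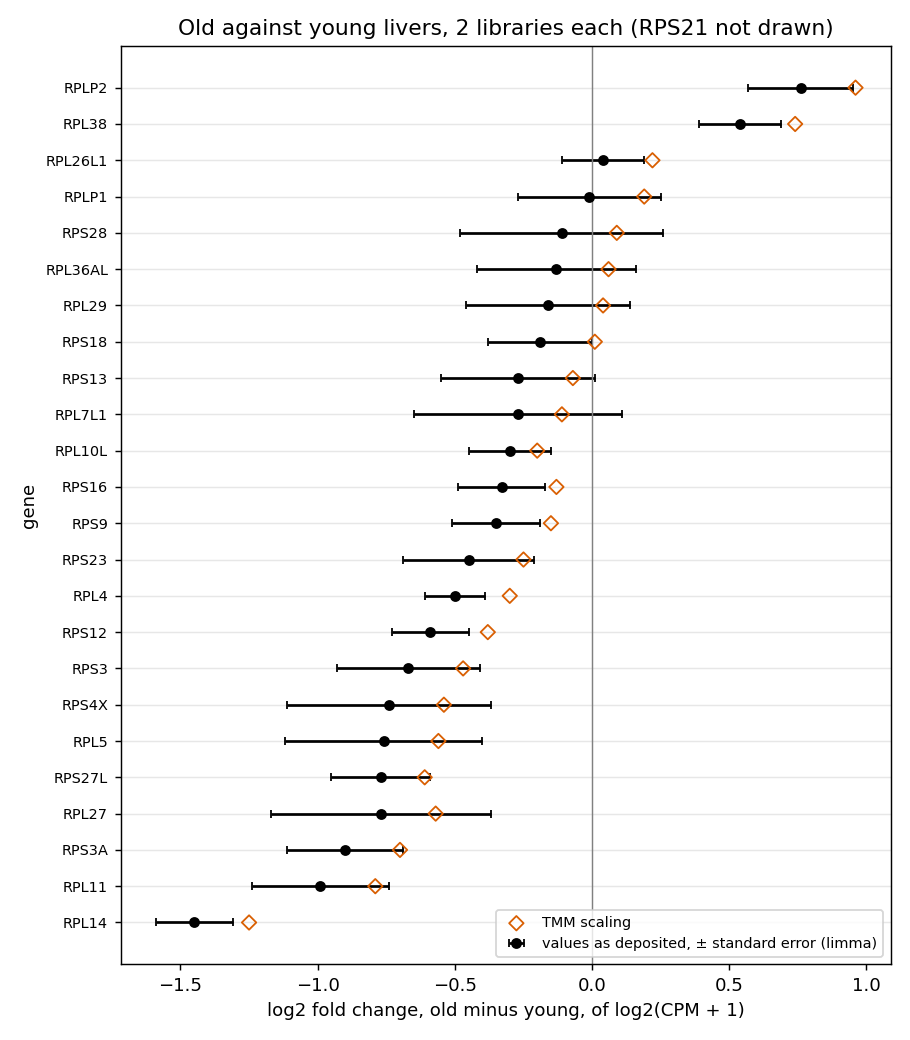
Log2 fold change (old minus young, on log2(CPM + 1)) of 24 ribosomal protein genes, with circles and bars for the deposited values ± standard error from limma and diamonds for TMM scaling. RPLP2 and RPL38 are to the right of 0 under both, RPL14 is farthest to the left at -1.45, and TMM scaling moves each gene to the right.

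The genes were also set against one another with ratios within a library, which no scaling alters. The 3 pairs plotted, those named above among them, were chosen after values had been seen, so their separation is no test. The ratio of RPL38 to RPL14 was 0.554 and 0.503 in young livers but 2.14 and 2.09 in old livers, the mean ratio being 4 times as high. When each gene was centred on the geometric mean of the 27 genes with more than 3 reads in every library, 9 of the 28 genes were lower and 8 higher in both old livers, beside 13.9% and 33.2% of all mRNAs and 28.4% and 27.0% of those with a mean of at least 50 CPM. The centring itself brings the members near a balance, so nothing is read from these counts. On this scale RPL14 went from 2.19 and 2.04 in the young livers to 1.10 and 0.97 in the old livers in log2 units, and RPLP2 from 0.31 and 0.20 to 1.36 and 1.43.

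**Figure D5:**
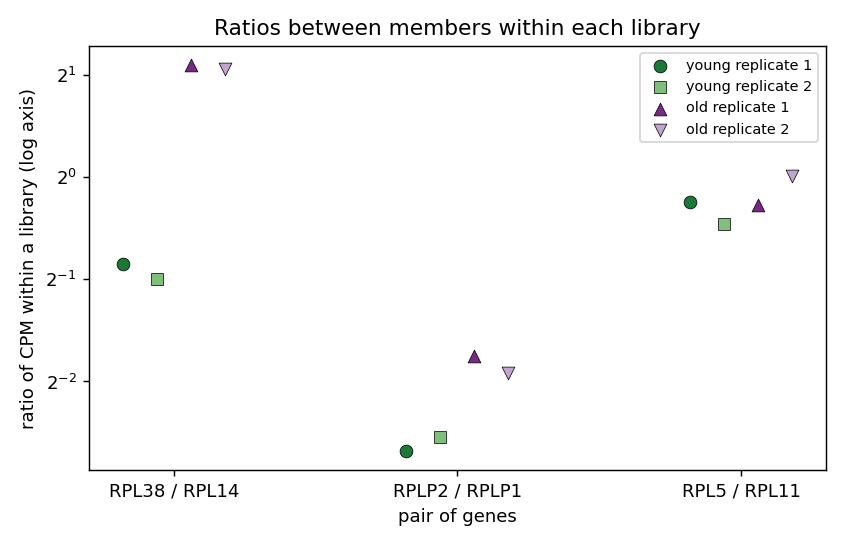
Ratio of CPM between 2 ribosomal protein genes within each library (log axis), with 1 point per library for 3 pairs. Both old livers lie above both young livers for RPL38 to RPL14 (2.14 and 2.09 against 0.554 and 0.503) and RPLP2 to RPLP1, and they overlap for RPL5 to RPL11.

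RPS21 was carried by a single liver. RPS21 (ENSSSCG00000021825), a small protein on the surface of the small subunit, was at 48.4 CPM (4443 reads) in young replicate 1, at 0.081 CPM (7 reads) in young replicate 2 and at 0 in both old livers, where a count of 0 allows up to 3 reads, or 0.0487 and 0.0418 CPM. The young livers differed 597-fold from each other, and young replicate 1 was at least 992-fold higher than the limit in old replicate 1. The log2 fold change of limma was -2.87 (standard error 2.16, adjusted p = 0.607) and depends on the pseudocount. The exact test of edgeR called RPS21 lower in old livers (adjusted p = 0.000112), the only 1 of the 28 genes it called, beside 0.320% of all mRNAs, whereas the adjusted p-value in the quasi-likelihood test of edgeR was 0.340. Without young replicate 1 the gene had no more than 7 reads in any library and was not tested.

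The 5 genes related to a core gene were at 16.9 CPM or less in every library, and none of their core genes (RPL10, RPL26, RPL36A, RPL7 and RPS27) was analysed here. RPS27L (ENSSSCG00000023158), a paralog of RPS27, was at 5.51 and 7.30 CPM in young against 3.19 and 3.42 CPM in old livers. The ages did not overlap, and its log2 fold change was -0.77 ± 0.18 (SE, with an adjusted p of 0.25 in limma). RPL10L, an intronless copy known for expression in the testis, had 97 and 117 reads in young livers but 42 and 65 reads in old livers, or between 0.682 and 1.35 CPM, and overlapped between the ages under the other scalings.

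RPL26L1 was at 12.7 CPM in both young livers against 14.4 and 11.8 CPM in old livers, and RPL36AL at 15.0 and 13.9 against 16.9 and 10.2. RPL7L1, whose product takes part in ribosome assembly, was at 5.87 and 3.58 CPM in the young and 5.02 and 2.60 CPM in the old group. These 3 genes were lowest in old replicate 2, whereas the 22 abundant ribosomal genes were all lower in old replicate 1, and each overlapped between the ages as deposited. Their log2 fold changes were 0.04, -0.13 and -0.27, and all 3 changed direction when 1 of the libraries was left out.

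The other genes of translation were counted from fixed lists in the same fit, and none was called by limma, while the exact test of edgeR called BYSL. RACK1, a scaffold protein on the small subunit that the symbol rule does not take in, was at 425 and 484 CPM in young against 233 and 314 CPM in old livers, a log2 fold change of -0.74 ± 0.21 (SE, with an adjusted p of 0.283 in limma). FAU, whose product is cut into a ubiquitin-like protein and a small subunit protein, was at 2.21 and 1.71 CPM in the young and 2.45 and 2.60 CPM in the old group. Of 26 measured initiation factor genes, 16 were lower and 10 higher on average, with a median log2 fold change of -0.20, and 5 of those lower but 0 of those higher had an unadjusted p under 0.05, beside 8.93% and 6.78% of all mRNAs. EIF3E and EIF3L, subunits of the factor that prepares the small subunit for mRNA, were named for their separated differences on log2(CPM + 1), a scale on which EIF3L (-0.88) was within rounding of EIF3J (-0.88) and EIF3M (-0.87). EIF3E was at 42.3 and 42.0 CPM in young and 15.1 and 23.4 CPM in old livers. EIF3L was at 46.2 and 37.7 CPM against 15.9 and 30.8.

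Of the 6 measured genes of elongation and termination, 5 were lower on average, and EEF1D was higher. EEF1D, an exchange factor of elongation factor 1, was at 14.2 and 12.7 CPM in young against 34.4 and 41.7 CPM in old livers, a log2 fold change of 1.43 ± 0.16 (SE, with an adjusted p of 0.213 in limma). ABCE1, which recycles ribosomes, was at 4.68 and 3.50 CPM in the young and 2.92 and 1.61 CPM in the old group. The 15 measured genes of other TOP mRNAs, a list that shares RACK1, FAU, EEF1D and some initiation factors with those above, had 11 lower and 4 higher and a median of -0.55. NAP1L1, a histone chaperone of this list, was at 7.84 and 9.02 CPM in young against 1.80 and 5.04 CPM in old livers.

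Ribosome biogenesis and RNA polymerase I genes had a median log2 fold change of -0.12, with 27 of 40 lower and 13 higher. BYSL, an assembly factor of the small subunit, was at 3.43 and 3.14 CPM in young livers, at 58.8 in old replicate 1 and at 4.97 in old replicate 2, so its mean was set by 1 liver. RRS1, an assembly factor of the large subunit, was at 0.501 and 0 CPM in the young and 2.97 and 1.09 CPM in the old group. Among 16 measured regulators of TOP mRNAs, 8 were lower and 8 higher. MYC, a transcription factor that acts on ribosome genes, was at 0.653 and 0 CPM in young against 2.78 and 6.54 CPM in old livers, and TIA1, which binds TOP mRNAs, at 2.15 and 2.92 against 1.43 and 0.585.

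The ribosome of mitochondria, which translates the mitochondrial genome, is encoded by separate genes, of which 44 were measured. In old livers 32 of these were lower and 12 higher on average, with a median log2 fold change of -0.20 against -0.34 for the cytosolic genes, a difference that was not tested. MRPL28 was at 15.6 and 17.6 CPM in the young and 36.7 and 39.7 CPM in the old group, and MRPL4 at 10.2 and 6.92 against 17.2 and 18.5. Their summed level was 575 and 649 CPM for young but 570 and 527 CPM for old livers, and here old replicate 2 was lowest.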

How the data were processed

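The deposited tables hold CPM values of mRNAs and lncRNAs. The submitters' processing notes name TopHat2 2.0.14, StringTie 1.2.3 and Salmon 0.6.0, the authors' methods name the build Sscrofa10.2, and the values are called TPM there. In every library they were whole multiples of 1 step shared by all genes (tolerance 0.0006 CPM), so they were read as CPM, and whole reads were recovered for 100% of the values. The miRNA and circRNA files were not used here.

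The members and gene lists were chosen with earlier results of these data known. Named genes were the stalk proteins, the 5 genes with the highest mean, the 5 largest differences in each direction and the 2 smallest p-values among separated genes with a mean of at least 1 CPM, genes at 0, genes related to a core gene, and the 2 largest separated differences of each other list. The remaining values named, and the ratios, were picked after values had been seen. Some single genes are not reported here by name or drawn, and they are part of the counts, medians and sums. Symbols came from a table of Ensembl identifiers, and no coordinates or sequences were used.

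Old and young livers were compared with limma 3.58.1 (R 4.3.3) on log2(CPM + 1), with Benjamini-Hochberg adjustment over all 16898 mRNAs above 0 in at least 2 libraries. The exact and quasi-likelihood tests of edgeR 4.0.16 on whole reads, the pseudocount, filter, scaling, variance trend, replicate block and leaving out each library were alternatives. A filter at a mean of 50 CPM and a sum without RPS21 were added after seeing the data. The tests were tried on simulated counts. Summaries were made in Python 3.11.15.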

Additional observations from a re-analysis of the deposited data

How the results depend on the processing

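With 2 livers per age, p-values set a difference against the spread between single animals, which limma moderates with that of all mRNAs tested. No ribosomal gene was called under any alternative other than the exact test of edgeR, which called 1 (RPS21), 1 of the other translation genes (BYSL) and 399 mRNAs in all. Filters at a mean of 1 and of 50 CPM gave 2 and 5 calls among all mRNAs, none of them a ribosomal gene. The cause of these changes was not tested. The median log2 fold change of the 28 genes, -0.34 as deposited, was -0.15 with TMM scaling, -0.18 with median-of-ratios scaling, -0.12 with the mRNA total, and -0.14 in both the exact and the quasi-likelihood test of edgeR, where the median of all mRNAs was 0.12. For the 744 mRNAs with a mean of at least 50 CPM the medians were close to these, at -0.37, -0.17, -0.19, -0.13 and -0.15 in the same order. With 1 library left out the median of the 28 genes ranged from -0.55 to -0.23, and that of the abundant mRNAs from -0.51 to -0.26. RPLP1 changed direction to 0.19 with TMM, 0.17 with median-of-ratios, and 0.22 with the mRNA total and both edgeR tests, and RPL36AL to 0.06, 0.04, 0.09 and 0.10 in the same order. With 1 library left out, RPLP1 ranged from -0.30 to 0.28, RPL36AL from -0.47 to 0.21, RPL7L1 from -0.64 to 0.10 and RPL26L1 from -0.10 to 0.17. RPS21 had -13.77 in the exact test, a size set by the prior count. The ratio of summed levels, old to young, was between 0.676 (without old replicate 2) and 0.940 (with the mRNA total) under the library scalings and omissions, and 1.02 when libraries were centred on the members themselves. The replicate numbers do not mark shared animals, and young replicate 1 minus 2 and old replicate 1 minus 2 had a correlation of 0.090 across mRNAs, which are not independent replicates. With the replicate number as a block, 0 ribosomal genes were called and the median remained -0.34. In that limma fit 7 instead of 9 genes had an unadjusted p-value under 0.05, beside 2425 instead of 2654 of all 16898 mRNAs. The number of such genes also depended on other choices. It was 1 at a pseudocount of 0.1 (beside 2438 of all mRNAs) and 4 with a variance trend (2415). In either edgeR test it was 2 (beside 1909 in the exact and 2474 in the quasi-likelihood test). With a filter at a mean of 1 or 50 CPM it was 3, beside 1518 of 9798 and 157 of 744 mRNAs.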

Other observations

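Genes that sense or signal faults of ribosomes were not part of the comparisons above. Of 10 such genes 7 were measured, 3 of them higher and 4 lower on average in old livers, and none was called by limma. MDM2, which RPL5 and RPL11 bind, was at 6.68 and 2.78 CPM in the young and 5.23 and 3.38 CPM in the old group, so that the ages overlapped. EPRS1, a tRNA synthetase that also joins RPL13A in a complex on inflammatory mRNAs, was at 8.62 and 6.17 CPM in young against 4.37 and 3.83 CPM in old livers.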
